A study of Homo sapiens with 12 samples.

Results

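The MAPK feedback and ETS target genes are 10 genes that growth factor signalling through Ras and ERK is known to switch on in epithelial cells. They were chosen by symbol, as the rows for DUSP4, DUSP5, DUSP6, SPRY1, SPRY2, SPRY4, SPRED1, SPRED2, ETV4 and ETV5, and all 10 were found among the 48114 genes listed. The choice was made with earlier results of these data known. The study asked which RNA-binding proteins (RBPs) set the splicing programs of the basal-like and classical subtypes of pancreatic ductal adenocarcinoma (PDAC), and it sequenced polyA RNA of 2 PDAC cell lines in 12 libraries. The basal-like line PANC-1 received a control siRNA (siCtrl), siRNAs against QKI (siQKI) or siRNAs against RBFOX2 (siRBFOX2). The classical line HPAF-II received siCtrl. There were 3 libraries per group.

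All cells carried siRNA for 48 h, and the labels give 40 nM for the siRNAs against QKI and RBFOX2. The study's supplement lists pooled siRNAs for siCtrl and for QKI, and the make of the siRNAs against RBFOX2 is not given in the sources used here. The labels name no independent siRNA set and no rescue for either knockdown. Each group is a single cell line, and the labels do not say whether its 3 libraries came from separate cultures, so p-values measure the spread between libraries, which may be technical. In bulk RNA, a smaller share of cells with a transcript and less of that transcript per cell cannot be told apart. The values are gene counts divided by a size factor for each library, called normalized counts here. Changes in PANC-1 cells are log2 fold changes with their standard error (SE), and their p-values were adjusted over all genes in a limma fit.

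In the Ras-ERK pathway, receptor signals load Ras with GTP, Ras recruits RAF kinases, RAF activates MEK, and MEK activates ERK, which enters the nucleus and phosphorylates transcription factors of the ETS and AP-1 families. ERK also switches on its own brakes. DUSP4, DUSP5 and DUSP6 encode phosphatases that dephosphorylate MAP kinases, the Sprouty proteins (SPRY1, SPRY2 and SPRY4) and the related SPRED proteins restrain signalling at the level of Ras and RAF, and ETV4 and ETV5 are ETS transcription factors of the PEA3 group. Transcripts of these genes are widely read as a measure of ERK output.

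Promoters of the members with the largest falls, among those with an entry, are shown because ETS proteins bind DNA around the core GGAA. The sequences are RefSeq promoters on GRCh38.p14, with 250 bases before and 50 bases after the start. Capitals mark GGAA or its reverse complement TTCC on either strand. RefSeq promoter entries matched 6 of the 10 members, DUSP6, SPRY1, SPRY2, SPRY4, SPRED1 and SPRED2.
DUSP6 promoter, chr12:89352452-89352751, minus strand: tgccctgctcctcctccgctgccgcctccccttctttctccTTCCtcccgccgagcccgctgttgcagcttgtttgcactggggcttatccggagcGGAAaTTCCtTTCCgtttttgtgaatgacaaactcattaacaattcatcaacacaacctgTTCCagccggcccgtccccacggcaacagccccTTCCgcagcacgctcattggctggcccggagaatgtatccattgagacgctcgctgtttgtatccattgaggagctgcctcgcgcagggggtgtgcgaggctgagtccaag
SPRY2 promoter, chr13:80341077-80341376, minus strand: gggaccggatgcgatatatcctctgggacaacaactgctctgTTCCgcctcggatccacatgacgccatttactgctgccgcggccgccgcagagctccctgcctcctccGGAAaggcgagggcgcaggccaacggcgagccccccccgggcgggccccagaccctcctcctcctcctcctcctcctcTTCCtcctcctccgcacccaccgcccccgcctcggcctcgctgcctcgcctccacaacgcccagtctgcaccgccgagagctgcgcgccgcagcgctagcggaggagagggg
SPRY4 promoter, chr5:142324198-142324497, minus strand: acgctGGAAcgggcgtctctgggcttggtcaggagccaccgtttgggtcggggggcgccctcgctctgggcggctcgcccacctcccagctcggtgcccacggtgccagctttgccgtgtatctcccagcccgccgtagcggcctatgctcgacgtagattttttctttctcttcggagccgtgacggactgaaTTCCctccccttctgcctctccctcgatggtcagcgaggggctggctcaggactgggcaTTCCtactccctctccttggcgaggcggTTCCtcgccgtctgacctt

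The DUSP6 promoter held 6 GGAA cores, the SPRY4 promoter 4 and the SPRY2 promoter 3. The core is common, since 95.5% of 35116 promoters of this length held at least 1 on either strand and the median promoter held 3. Of the longer ETS words, which contain the core, AGGAAG on either strand was present in the DUSP6, SPRY2, SPRED1 and SPRED2 promoters and in 33.6% of all promoters. CGGAAG was present in those of DUSP6 and SPRED2 and in 19.5% of all promoters. A match describes the letters and is no evidence of binding.

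Short words bound by the silenced RBPs were searched in the longest coding transcript of each member (GENCODE v29, hg38), on the transcript strand alone and without introns. QKI is known to bind RNA that holds ACTAAC in DNA letters, and RBFOX proteins bind TGCATG. The words do not overlap. The 4 QKI sites are shown as 30 bases each, with the word in capitals and its own coordinates given. RBFOX sites are shown for DUSP5 and DUSP6, the phosphatase genes that differed between the knockdowns, and for SPRY4, which held the most. SPRY1 differed between the knockdowns as well and held 2 RBFOX sites, which are not shown.
DUSP6 QKI motif, 3′ UTR, chr12:89349091-89349096, minus strand: gaattggttaatACTAACagagagatttgc
SPRY4 QKI motif, 3′ UTR, chr5:142313494-142313499, minus strand: ccaactgcatcaACTAACtctcgggggtgt
SPRED1 QKI motif, 3′ UTR, chr15:38354116-38354121, plus strand: tcagtctacaagACTAACtgatgatataat
ETV5 QKI motif, 3′ UTR, chr3:186047532-186047537, minus strand: ttccccgtgttcACTAACatgccctctctg
DUSP5 RBFOX motif, coding sequence, chr10:110510091-110510096, plus strand: tcacccaccatcTGCATGgcttaccttatg
DUSP6 RBFOX motif, 5′ UTR, chr12:89352844-89352849, minus strand: caagggcttttgTGCATGctaattgcgcca
SPRY4 RBFOX motif, coding sequence, chr5:142314509-142314514, minus strand: aactatggcacgTGCATGtgtttggtgcag
SPRY4 RBFOX motif, 3′ UTR, chr5:142312736-142312741, minus strand: gtaggtacttgtTGCATGcaaaagctgtag
SPRY4 RBFOX motif, 3′ UTR, chr5:142312596-142312601, minus strand: tgaaactggaagTGCATGaggcagagcgtc

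ACTAAC was found in 4 of the 10 member transcripts, always in the 3′ UTR, and in 26.8% of the 14419 transcripts searched over tested genes. TGCATG was found in 6 of the 10, DUSP5, DUSP6, SPRY1, SPRY4, SPRED1 and SPRED2, and in 55.6% of those transcripts. SPRY2, ETV4 and DUSP4 held neither word. The DUSP6 site in the 5′ UTR lies outside the span that the deposited table lists for the gene. The part of these words in the changes described next was not tested, and these transcripts say nothing about words in introns.

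The targeted genes were checked first. QKI had 25533 ± 869 normalized counts in siCtrl cells and 5034 ± 412 in siQKI cells (SD, n = 3), and RBFOX2 had 15429 ± 76.8 in siCtrl cells and 2095 ± 352 in siRBFOX2 cells (SD, n = 3). The siQKI libraries also held less RBFOX2, 12642 ± 129 normalized counts (SD, n = 3), a log2 change of -0.29 (SE 0.09, adjusted p = 0.0207, limma), and this call was lost in 5 of 17 alternatives. The epithelial genes KRT8, KRT18 and KRT19 had means between 135191 and 435021 normalized counts in the 3 PANC-1 groups. The epithelial genes EPCAM and CDH1 were far lower there, with means of 4278 to 4749 and of 987 to 2610 normalized counts. The 8 markers of leukocytes, endothelial, acinar and endocrine cells were too low to be tested. Their summed normalized counts were 11.99 to 57.3 in siCtrl, 0 to 10.5 in siQKI, 0 to 46.5 in siRBFOX2 and 0 to 162 in HPAF-II libraries, and INS and GCG were at 0 in all 12. CDH1, the epithelial cadherin, rose with a log2 change of 1.39 in siQKI cells (SE 0.11, adjusted p = 1.54e-07) and of 0.53 in siRBFOX2 cells (SE 0.11, adjusted p = 0.00177, both limma). KRT18 fell in both, with log2 changes of -0.20 in siQKI cells (SE 0.05, adjusted p = 0.00716) and -0.35 in siRBFOX2 cells (SE 0.05, adjusted p = 1.28e-04, both limma). KRT8 and KRT19 each fell by 0.23 on the log2 scale in siRBFOX2 cells (SE 0.04 for both, adjusted p = 7.78e-04 and 5.95e-04, limma) and were not called in siQKI cells, at 0.02 and 0.04. EPCAM was not called in either, at -0.12 and -0.15. The part of these epithelial genes in the changes below was not tested.

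The comparison of siQKI with siCtrl cells asks how the feedback genes stood once QKI was depleted. Of the 10 members, 9 passed the threshold (limma on log2(normalized count + 1), adjusted p below 0.05 over all 22544 genes with a mean of at least 10) and all 9 were lower. Among all genes tested, 18.1% were lower at that threshold and 33.0% were called in either direction. The members were chosen with earlier results known, so shares of all genes, here and below, are set beside them as a description. The fall was at least 1.5-fold in 5 members, DUSP5, SPRY2, SPRY4, ETV4 and ETV5, against 3.16% of all genes. In 8 members all siQKI libraries lay below all siCtrl libraries, and so they did in 23.0% of all genes. The median log2 fold change over the 10 members was -0.62, and over all genes it was 0.03.

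In siRBFOX2 cells, 9 of the 10 members were again lower than in siCtrl cells, while 14.5% of all genes were lower and 26.5% were called in either direction. The fall was at least 1.5-fold in 5 members, DUSP5, DUSP6, SPRY2, SPRY4 and ETV4, against 1.62% of all genes. All siRBFOX2 libraries lay below all siCtrl libraries in 9 members and in 19.7% of all genes. The median log2 fold change was -0.63 over the members and 0.01 over all genes. Both knockdowns were set against the same 3 siCtrl libraries, so the counts are given side by side and their overlap is not read as a result. The member without a call in either knockdown was DUSP4, which was nearly absent from PANC-1 cells.

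**Figure D1:**
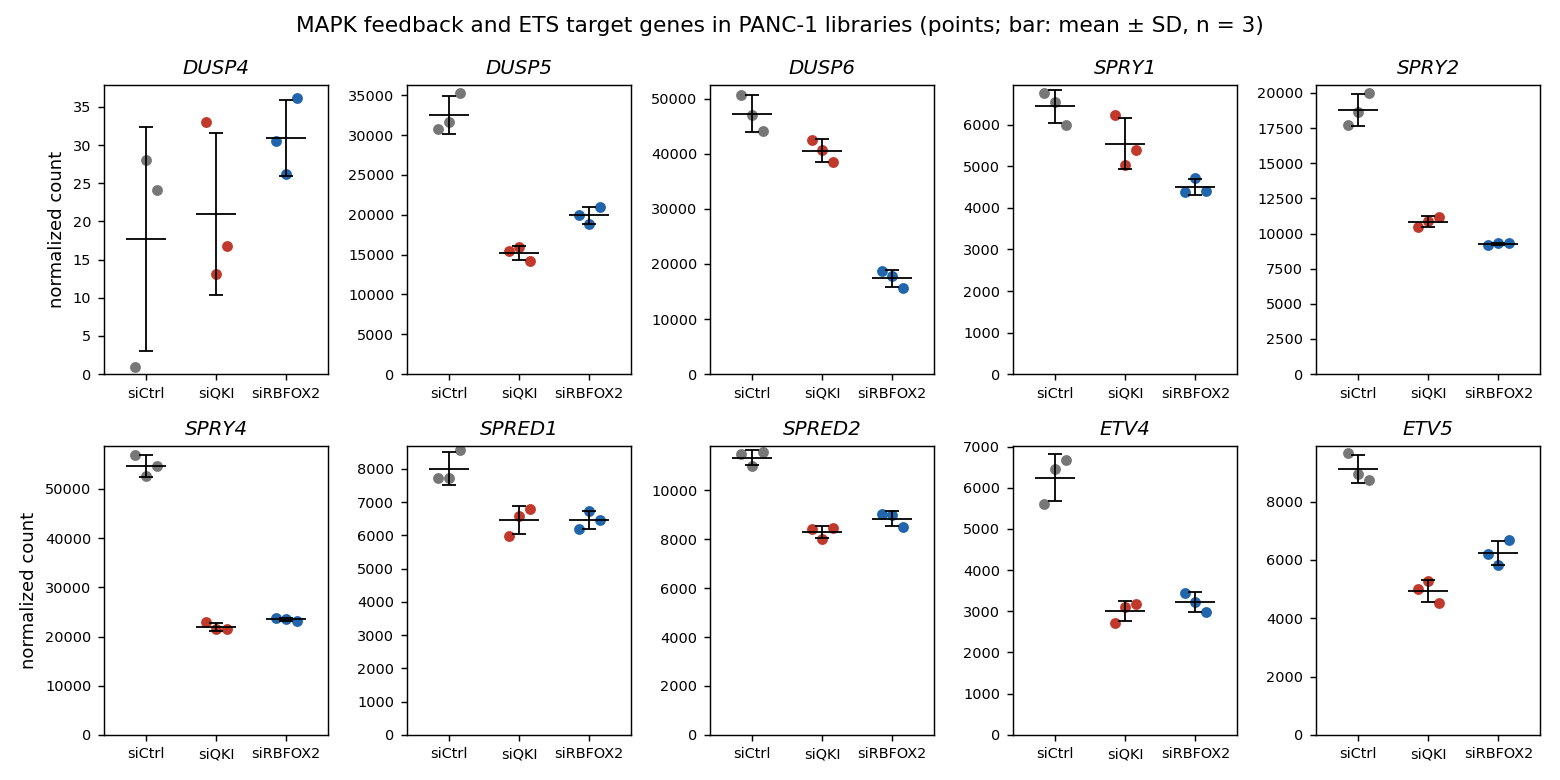
Normalized counts (y axis, linear from 0, own scale in each panel) of the 10 members in the 3 siCtrl, 3 siQKI and 3 siRBFOX2 libraries of PANC-1 cells; points are libraries and bars are means ± SD. For 8 members all siQKI libraries, and for 9 members all siRBFOX2 libraries, lay below all siCtrl libraries, while DUSP4 stayed at or below 36.1 in every library.

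Among the phosphatases, DUSP6 (GSHG0010403 in FAST DB, chr12:89347235-89352503, hg38) removes phosphate from ERK in the cytoplasm. Its normalized counts were 50756, 46983 and 44132 in siCtrl cells, 42571, 40647 and 38511 in siQKI cells and 18640, 17875 and 15691 in siRBFOX2 cells. The siRBFOX2 libraries lay far below all others, and the siQKI libraries lay just below the siCtrl libraries. The mean was 47290 ± 3322 in siCtrl and 17402 ± 1531 in siRBFOX2 cells (SD, n = 3), a log2 change of -1.44 (SE 0.06, adjusted p = 1.15e-09, limma). In siQKI cells the mean was 40576 ± 2031 (SD, n = 3), a log2 change of -0.22 (SE 0.06, adjusted p = 0.0151, limma). This smaller change was not called without siCtrl replicate 1 (log2 fold change -0.17, adjusted p = 0.0773), without siQKI replicate 3 (-0.18, adjusted p = 0.0734) or without a mean-variance trend (adjusted p = 0.106). Over 17 alternatives, adjusted p-values ran from 8.43e-04, with a replicate block, to 0.106.

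DUSP5 (GSHG0004466, chr10:110497907-110511537), a nuclear phosphatase that is specific for ERK, went the other way in rank. Its normalized counts were 30747, 31691 and 35249 in siCtrl cells, 15496, 15955 and 14258 in siQKI cells and 19964, 18813 and 20956 in siRBFOX2 cells. The 3 groups did not overlap, and siQKI cells were lowest. The log2 fold change was -1.09 in siQKI cells (SE 0.06, adjusted p = 3.78e-09, limma), and 46.8% of the siCtrl mean remained. In siRBFOX2 cells it was -0.71 (SE 0.06, adjusted p = 6.61e-07, limma), and 61.1% remained.

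DUSP4 (GSHG0042250, chr8:29333064-29350684), a nuclear phosphatase for several MAP kinases, had normalized counts of 0.957, 28.0 and 24.1 in siCtrl cells. It had 33.1, 13.1 and 16.8 in siQKI cells and 30.5, 26.1 and 36.1 in siRBFOX2 cells. Groups overlapped and neither contrast passed (siQKI log2 fold change 0.86, SE 0.99, adjusted p = 0.567, and siRBFOX2 1.49, SE 0.99, adjusted p = 0.313, limma). The positive sign in siQKI cells rested on siCtrl replicate 1, at the lowest value a library can hold above 0. Without that library the log2 fold change was -0.40 (adjusted p = 0.751) in siQKI cells and 0.23 in siRBFOX2 cells.

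SPRY4 (GSHG0035845, chr5:142310430-142325040), which blocks growth factor signalling upstream of RAF, had the largest fall of any member in siQKI cells. Its normalized counts were 57006, 52607 and 54590 in siCtrl cells, 22968, 21437 and 21516 in siQKI cells and 23788, 23575 and 23209 in siRBFOX2 cells. All 6 knockdown libraries lay at or below 23788, far below all siCtrl libraries. The log2 fold change was -1.32 in siQKI cells (SE 0.04, adjusted p = 1.67e-11, limma), where 40.1% of the siCtrl mean remained. It was -1.22 in siRBFOX2 cells (SE 0.04, adjusted p = 1.03e-10, limma), where 43.0% remained. Strand is not stated for the counts, and SPRY4 overlaps the non-coding gene SPRY4-IT1, whose mean was 1.04% of the SPRY4 value over the PANC-1 libraries. SPRY4-IT1 fell as well, from 566 ± 21.0 normalized counts in siCtrl cells to 277 ± 47.1 in siQKI and 202 ± 24.5 in siRBFOX2 cells (SD, n = 3), and reads of the pair cannot be told apart.

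SPRY2 (GSHG0011777, chr13:80335976-80341126), which binds GRB2 and CBL, had normalized counts of 17722, 18615 and 20026 in siCtrl cells. It had 10431, 10905 and 11209 in siQKI cells and 9190, 9315 and 9325 in siRBFOX2 cells. The 3 groups did not overlap, and siRBFOX2 cells were lowest, with an SD of 75.4 normalized counts over the 3 libraries. The log2 fold change was -0.79 in siQKI cells (SE 0.05, adjusted p = 2.30e-08, limma). In siRBFOX2 cells it was -1.02 (SE 0.05, adjusted p = 4.27e-09, limma).

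SPRY1 (GSHG0032914, chr4:123396795-123403760), changed least of the Sprouty members. Its normalized counts were 6767, 6551 and 6006 in siCtrl cells, 6227, 5028 and 5393 in siQKI cells and 4377, 4723 and 4404 in siRBFOX2 cells. The siRBFOX2 libraries lay below all others, while siQKI replicate 1 lay above siCtrl replicate 3. The log2 fold change was -0.52 in siRBFOX2 cells (SE 0.08, adjusted p = 1.41e-04, limma). It was -0.22 in siQKI cells (SE 0.08, adjusted p = 0.0383, limma), a call that was lost in 6 of 17 alternatives. Among these, its log2 fold change was -0.18 without siCtrl replicate 1, -0.21 without siCtrl replicate 2, -0.15 without siQKI replicate 2 and -0.20 without siQKI replicate 3, and the adjusted p-values over the 17 ran from 0.00484 to 0.185.

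The SPRED proteins bring neurofibromin, a Ras inactivator, to the membrane. SPRED1 (GSHG0013600, chr15:38252315-38357249) had normalized counts of 7719, 7735 and 8568 in siCtrl cells, 5984, 6574 and 6798 in siQKI cells and 6198, 6723 and 6451 in siRBFOX2 cells. The knockdown groups overlapped each other and lay below siCtrl. The log2 fold changes were -0.31 in siQKI cells (SE 0.06, adjusted p = 0.00124) and -0.31 in siRBFOX2 cells (SE 0.06, adjusted p = 0.00187, both limma).

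SPRED2 (GSHG0025388, chr2:65310851-65432599) had normalized counts of 11477, 10995 and 11555 in siCtrl cells, 8404, 8022 and 8442 in siQKI cells and 9025, 9007 and 8491 in siRBFOX2 cells. All knockdown libraries lay below siCtrl, and the siQKI libraries were lowest. The log2 fold changes were -0.45 in siQKI cells (SE 0.05, adjusted p = 3.96e-06) and -0.36 in siRBFOX2 cells (SE 0.05, adjusted p = 6.35e-05, both limma). Unnamed genes that overlap SPRED1 and SPRED2 had means of at most 2.51% of the member's mean in any group.

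Of the ETS factors, ETV4 (GSHG0019302, chr17:43527844-43546340) had normalized counts of 5600, 6463 and 6675 in siCtrl cells. It had 2720, 3103 and 3166 in siQKI cells and 3456, 3224 and 2988 in siRBFOX2 cells. All 6 knockdown libraries lay below all siCtrl libraries and overlapped each other. The log2 fold change was -1.06 in siQKI cells (SE 0.08, adjusted p = 1.91e-07, limma). In siRBFOX2 cells it was -0.95 (SE 0.08, adjusted p = 1.16e-06, limma). ETV4 overlaps the helicase gene DHX8, which had 12460 ± 510 normalized counts in siCtrl, 10668 ± 102 in siQKI and 11725 ± 1149 in siRBFOX2 cells (SD, n = 3). DHX8 itself had log2 fold changes of -0.22 in siQKI cells (SE 0.06, adjusted p = 0.0120) and -0.09 in siRBFOX2 cells (SE 0.06, adjusted p = 0.328, both limma). Its share in the ETV4 value was not tested.

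ETV5 (GSHG0032045, chr3:186046314-186109089) had normalized counts of 9662, 8954 and 8726 in siCtrl cells, 4998, 5294 and 4528 in siQKI cells and 6202, 5830 and 6668 in siRBFOX2 cells. The 3 groups did not overlap, and siQKI cells were lowest, as for DUSP5. The log2 fold change was -0.89 in siQKI cells (SE 0.07, adjusted p = 1.68e-07, limma). In siRBFOX2 cells it was -0.55 (SE 0.07, adjusted p = 3.52e-05, limma).

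**Figure D2:**
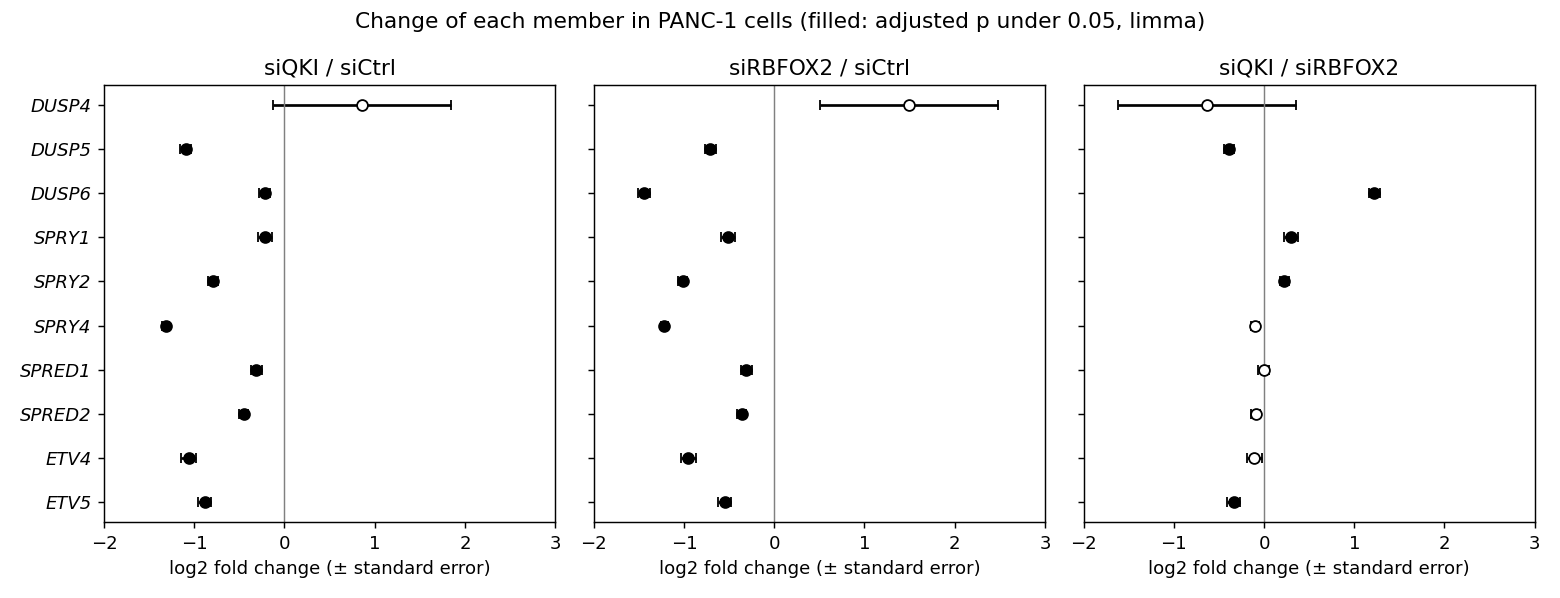
Log2 fold change (x axis, ± SE, limma) of the 10 members (y axis) for siQKI against siCtrl, siRBFOX2 against siCtrl and siQKI against siRBFOX2; filled points passed an adjusted p of 0.05. The first 2 panels share the siCtrl libraries, and in the last panel DUSP6 lies far to the right at 1.22 while SPRY4, SPRED1, SPRED2 and ETV4 lie within 0.11 of 0.

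The siQKI and siRBFOX2 libraries were then compared directly, which tests where the 2 knockdowns differed. Of the 10 members, 5 passed the threshold, and 21.5% of all genes did. DUSP6 had 233% of its siRBFOX2 level in siQKI cells, with a log2 difference of 1.22 (SE 0.06, adjusted p = 7.71e-09, limma). SPRY1 and SPRY2 were also higher in siQKI than in siRBFOX2 cells, by 0.30 (SE 0.08, adjusted p = 0.0106) and 0.23 (SE 0.05, adjusted p = 0.00475) on the log2 scale. The SPRY1 difference was 0.21 (adjusted p = 0.0561) without siQKI replicate 1. DUSP5 and ETV5 were lower in siQKI cells, with log2 differences of -0.39 (SE 0.06, adjusted p = 2.17e-04) and -0.34 (SE 0.07, adjusted p = 0.00244). DUSP5 and DUSP6, both ERK phosphatase genes, thus differed in opposite directions.

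The other members did not pass between the knockdowns. The log2 difference was -0.10 for SPRY4 (SE 0.04, adjusted p = 0.119), -0.09 for SPRED2 (SE 0.05, adjusted p = 0.210) and -0.11 for ETV4 (SE 0.08, adjusted p = 0.440, limma). For SPRY4 and SPRED2 the siQKI libraries all lay below the siRBFOX2 libraries, although the adjusted p missed the threshold. For SPRED1 the log2 difference was -0.0025 (SE 0.06, adjusted p = 0.986), the smallest of the 10. DUSP4 was too low for a comparison, with a log2 difference of -0.63 and an SE of 0.99.

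Levels were compared between members after rescaling every library to 1000000 in all and dividing by the exon length of the gene in kb. In siCtrl PANC-1 cells, DUSP5 was highest at 36.2 ± 2.47 per kb, followed by DUSP6 at 29.7 ± 2.42, SPRY4 at 24.2 ± 1.31 and SPRY2 at 18.0 ± 0.991 (SD, n = 3). A lower tier held SPRED2 at 6.40 ± 0.238, ETV4 at 5.03 ± 0.402, SPRY1 at 4.73 ± 0.326, ETV5 at 4.57 ± 0.303 and SPRED1 at 2.82 ± 0.166 (SD, n = 3). SPRY1 differed from ETV4 and from ETV5 by less than their spread, and DUSP4 stood at 0.00703 ± 0.00580 per kb (SD, n = 3). In siQKI cells DUSP6 led at 26.6 ± 1.14 per kb and DUSP5 followed at 17.7 ± 0.9995. In siRBFOX2 cells DUSP5 led at 23.0 ± 0.854 and DUSP6 was level with SPRY4, at 11.4 ± 1.06 and 10.8 ± 0.297 per kb (SD, n = 3).

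The other genes of Ras-ERK signalling were taken from 3 lists, chosen with earlier results of these data known. Among all genes tested, 18.1% were lower and 33.0% were called in either direction in siQKI cells. In siRBFOX2 cells these shares were 14.5% and 26.5%. Among 19 genes of the cascade from Ras to the RSK kinases, 10 were lower and 1 higher in siQKI cells, and 11 were lower and 2 higher in siRBFOX2 cells (limma). Their medians were -0.19 and -0.17 on the log2 scale, so most of the changes were small. RPS6KA1, which encodes the ERK-activated kinase RSK1, fell most in siQKI cells, from 17281 ± 1032 to 6477 ± 245 normalized counts (SD, n = 3), with a log2 change of -1.41 (SE 0.05, adjusted p = 6.39e-11). PTPN11, encoding the phosphatase SHP2, followed in siQKI cells at -0.53 (SE 0.05, adjusted p = 7.67e-07). In siRBFOX2 cells RPS6KA2 (RSK3) rose by 0.61 on the log2 scale (SE 0.15, adjusted p = 0.00784), and the adaptor GRB2 and the scaffold KSR1 had log2 fold changes of -0.41 (SE 0.04, adjusted p = 2.35e-06) and -0.35 (SE 0.08, adjusted p = 0.00566).

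Of 17 other negative regulators, 7 were lower and 3 higher in siQKI cells, and 5 were lower and 4 higher in siRBFOX2 cells (limma). The medians were 0.01 and -0.01 on the log2 scale, and 18.1% and 14.5% of all genes were lower in siQKI and siRBFOX2 cells. SPRED3, the remaining SPRED gene, and DUSP7, a cytoplasmic ERK phosphatase, had log2 fold changes of -0.81 (SE 0.16, adjusted p = 0.00105) and -0.73 (SE 0.09, adjusted p = 1.47e-05) in siQKI cells. The ERK-binding protein PEA15 and the EGFR inhibitor ERRFI1 followed at -0.41 (SE 0.05, adjusted p = 1.98e-05) and -0.39 (SE 0.04, adjusted p = 7.75e-07). In siRBFOX2 cells the nuclear phosphatase genes DUSP2 and DUSP1 fell, with log2 fold changes of -1.09 (SE 0.11, adjusted p = 5.66e-06) and -0.83 (SE 0.07, adjusted p = 5.40e-07), and the Ras inactivator RASA2 had -0.66 (SE 0.08, adjusted p = 1.85e-05). DUSP2 was instead higher in siQKI cells, at 0.38 (SE 0.11, adjusted p = 0.0189), a call lost in 4 of 17 alternatives. DUSP8 and DUSP10, whose products act mainly on JNK and p38, rose by 0.58 (SE 0.12, adjusted p = 0.00209) and 0.51 (SE 0.18, adjusted p = 0.0462) in siRBFOX2 cells, and the DUSP10 call was lost in 11 of 17 alternatives.

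Among 17 further ERK-linked transcription factors and targets, 12 were lower and 2 higher in siQKI cells, and 13 were lower and 1 higher in siRBFOX2 cells (limma). The medians were -0.50 and -0.39 on the log2 scale, and 18.1% and 14.5% of all genes were lower in siQKI and siRBFOX2 cells. ETV1, the remaining PEA3 factor, fell from 975 ± 140 normalized counts in siCtrl to 414 ± 63.0 in siQKI and 606 ± 46.2 in siRBFOX2 cells (SD, n = 3), with log2 fold changes of -1.23 (SE 0.16, adjusted p = 2.15e-05) and -0.68 (SE 0.16, adjusted p = 0.00473). All 3 PEA3 genes were thus lower in each knockdown. In siQKI cells the AP-1 gene FOSL1 had a log2 change of -0.92 (SE 0.04, adjusted p = 3.18e-10), PHLDA1 -0.96 (SE 0.04, adjusted p = 5.43e-10), the ETS factor ELK3 -0.84 (SE 0.07, adjusted p = 1.99e-07), the cytokine LIF -0.79 (SE 0.04, adjusted p = 5.46e-09) and IER3 -0.73 (SE 0.04, adjusted p = 4.52e-09). CCND1, encoding cyclin D1, and EGR1 followed at -0.55 (SE 0.04, adjusted p = 7.57e-08) and -0.52 (SE 0.11, adjusted p = 0.00133).

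FOS and EGR1, both immediate early genes, were lower in siRBFOX2 cells. FOS had 22514 ± 2381 normalized counts in siCtrl, 18074 ± 2595 in siQKI and 4423 ± 1083 in siRBFOX2 cells (SD, n = 3), and its log2 fold change in siRBFOX2 cells was -2.37 (SE 0.14, adjusted p = 2.23e-08, limma). EGR1 had 59298 ± 5746 in siCtrl and 16631 ± 2690 in siRBFOX2 cells (SD, n = 3), a log2 change of -1.84 (SE 0.11, adjusted p = 1.67e-08, limma). CCND1 (-1.04, SE 0.04, adjusted p = 1.89e-10), IER3 (-0.94, SE 0.04, adjusted p = 7.58e-10), LIF (-0.57, SE 0.04, adjusted p = 3.13e-07) and FOSL1 (-0.51, SE 0.04, adjusted p = 3.13e-07) were lower too. EPHA4, an ephrin receptor gene, rose in both, by 0.82 (SE 0.14, adjusted p = 2.94e-04) in siQKI and 1.01 (SE 0.14, adjusted p = 7.58e-05) in siRBFOX2 cells.

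**Figure D3:**
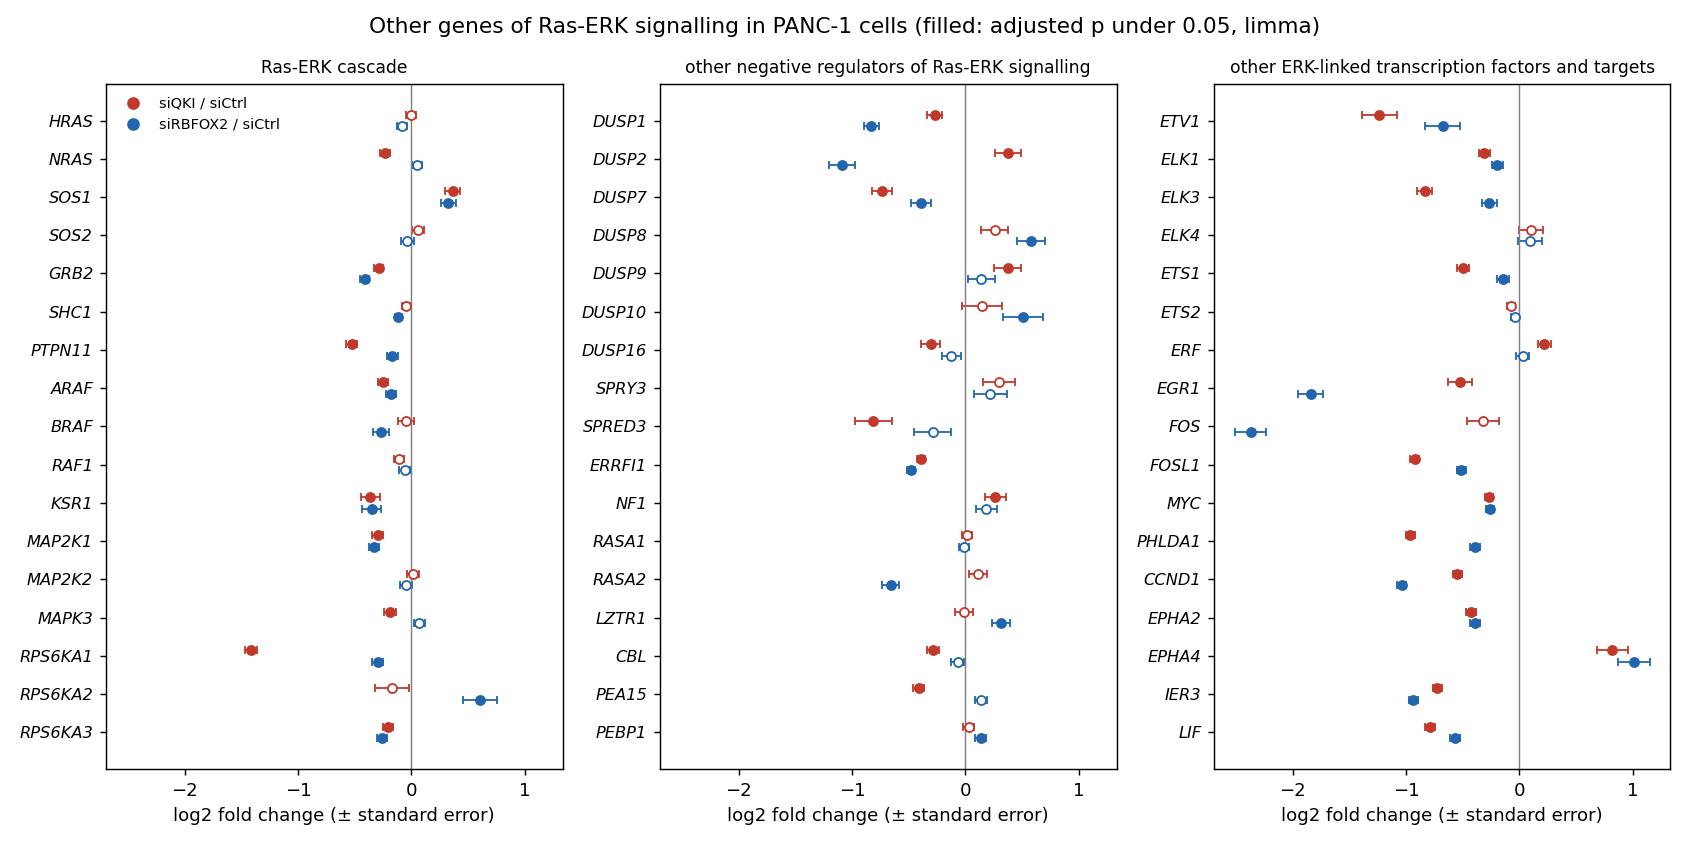
Log2 fold change (x axis, ± SE, limma) of 17 cascade genes, 17 other negative regulators and 17 other ERK-linked transcription factors and targets in siQKI (red) and siRBFOX2 (blue) against siCtrl PANC-1 cells; filled points passed an adjusted p of 0.05. RPS6KA1 stands apart in siQKI at -1.41, and FOS and EGR1 stand apart in siRBFOX2 at -2.37 and -1.84.

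The genes most like DUSP6 over the 9 PANC-1 libraries were sought among 15250 genes with a symbol and a mean of at least 50. The 5 with the highest Pearson r of log2(normalized count + 1) were the AP-1 gene FOSB (0.998), the ATPase gene WRNIP1 (0.996), FOS (0.996), RBFOX2 itself (0.994) and EPB41L4B (0.991). All 5 were lowest in siRBFOX2 cells, as DUSP6 was, which follows from choosing them by r. RBFOX2 is the target of that siRNA. FOSB had means of 27252 normalized counts in siCtrl, 21784 in siQKI and 4248 in siRBFOX2 cells. The 9 points share 3 groups, so r describes mainly the order of 3 group means. Within the members, DUSP5 was most like ETV5 (r = 0.978), SPRY4 like SPRED2 (0.981), ETV4 and SPRY2 like SPRY4 (0.969 and 0.949), SPRED1 like ETV4 (0.934) and DUSP6 like SPRY1 (0.899). DUSP4 had a negative r with each of the other 9, but its normalized counts were only 0.957 to 36.1 and its groups overlapped. Its r is therefore not read as a change against the other members.

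HPAF-II cells with siCtrl were set beside PANC-1 cells with siCtrl. The authors normalized the lines apart, so the same rescaled counts were used and no test was run. Of the 10 members, 7 differed at least 2-fold, 5 of them higher and 2 lower in HPAF-II, and 53.2% of 24673 genes with a mean of at least 10 in either line differed as much. The libraries of the lines did not overlap for 9 members, and for 63.7% of those genes. The members' count was therefore of the size seen across the transcriptome.

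DUSP4 was the member with the widest gap. HPAF-II libraries held 65.3, 60.0 and 94.4 rescaled counts, and PANC-1 libraries held 0.00283, 0.0804 and 0.0699. The ratio of the means was 1435, with a log2 ratio of 10.63 that fell to 8.94 and 6.12 with pseudocounts of 0.1 and 1 and to 9.72 without PANC-1 siCtrl replicate 1. Per kb, DUSP4 reached 10.1 ± 2.55 in HPAF-II cells (SD, n = 3), a level close to that of SPRY1 and SPRY4 there.

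DUSP6 and ETV4 were also higher in HPAF-II cells. DUSP6 had 492, 495 and 460 rescaled counts in HPAF-II and 150, 135 and 128 in PANC-1 libraries, a log2 ratio of 1.81. ETV4 had 110, 107 and 96.4 in HPAF-II and 16.5, 18.6 and 19.3 in PANC-1 libraries, a log2 ratio of 2.53. The overlapping gene DHX8 was at 27007 ± 4547 normalized counts in HPAF-II cells and 12460 ± 510 in siCtrl PANC-1 cells (SD, n = 3), without rescaling. Its share in the ETV4 values of either line was not tested. The lines did not overlap for either member.

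SPRY1 and SPRED1 were higher in HPAF-II cells as well, at 41.6 ± 7.53 against 18.7 ± 1.29 and 50.3 ± 4.14 against 23.3 ± 1.37 rescaled counts (SD, n = 3). SPRY2 and SPRY4 went the opposite way, at 18.8 ± 2.18 against 54.6 ± 3.01 and 75.2 ± 4.82 against 159 ± 8.63 (SD, n = 3). These were log2 ratios of 1.14, 1.11, -1.54 and -1.08, so the Sprouty genes were split between the lines. The log2 ratio was 0.54 for DUSP5 and -0.42 for SPRED2, and 0.26 and -0.70 in the deposited values without rescaling. For ETV5 it was -0.22, with HPAF-II libraries at 24.8, 26.5 and 17.7 and PANC-1 libraries at 28.5, 25.7 and 25.3, which overlapped. The ETV5 ratio was -0.046 without HPAF-II replicate 3, -0.34 without HPAF-II replicate 2 and -0.50 in the deposited values without rescaling.

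The order of levels per kb differed between the lines. In HPAF-II cells DUSP6 led at 104 ± 4.15, DUSP5 followed at 52.8 ± 5.86 and ETV4 at 28.96 ± 1.95 (SD, n = 3). SPRY4 (11.4 ± 0.735), SPRY1 (10.5 ± 1.90) and DUSP4 (10.1 ± 2.55) lay within their spread of each other, as did SPRY2 (6.20 ± 0.717) and SPRED1 (6.09 ± 0.501). SPRED2 (4.79 ± 0.434) and ETV5 (3.97 ± 0.800) were lowest. QKI stood at 14.5 ± 2.76 rescaled counts in HPAF-II and 74.2 ± 3.27 in PANC-1 cells (SD, n = 3).

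**Figure D4:**
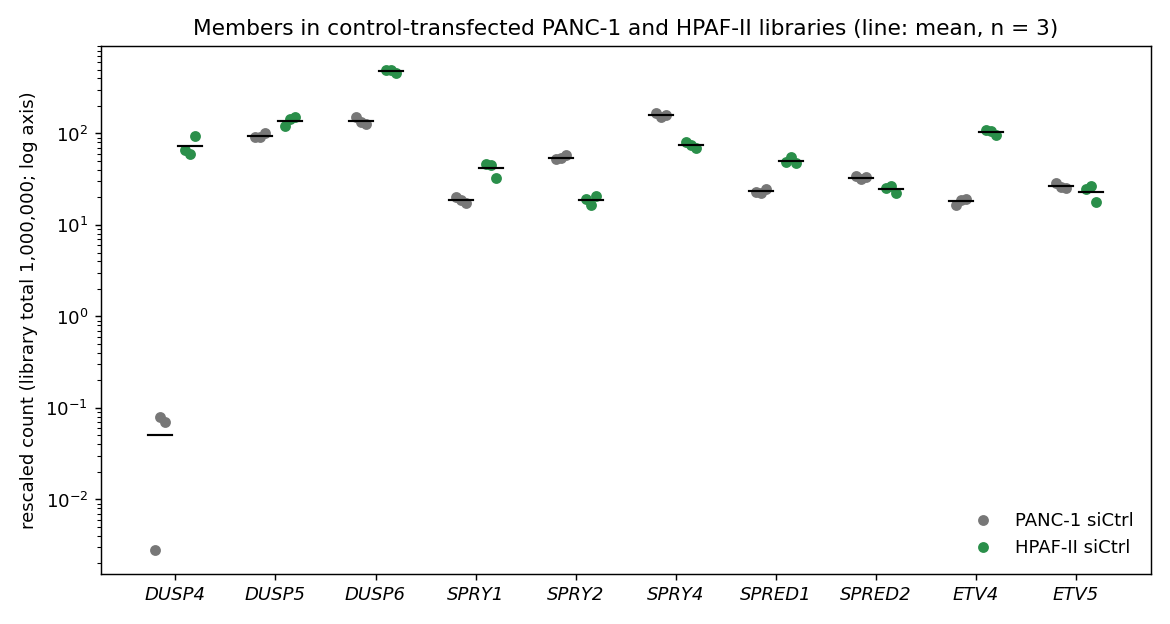
Rescaled counts (y axis, log scale, library total 1000000) of the 10 members in 3 siCtrl PANC-1 libraries (grey) and 3 siCtrl HPAF-II libraries (green); points are libraries and lines are means. DUSP4 is separated by a log2 ratio of 10.63, SPRY2 and SPRY4 are higher in PANC-1, and ETV5 overlaps.

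Between the lines, members that were lower in both knockdowns went in both directions. In rescaled counts, DUSP5, DUSP6, SPRY1, SPRED1 and ETV4 were higher in HPAF-II than in siCtrl PANC-1 cells in all libraries. SPRY2, SPRY4 and SPRED2 were lower in all libraries, and ETV5 overlapped. The lines did not overlap for 63.7% of all genes compared. In the deposited values without rescaling, DUSP5 overlapped, with an HPAF-II library at 33796 and a siCtrl PANC-1 library at 35249. HPAF-II cells and siQKI PANC-1 cells both held less QKI than siCtrl PANC-1 cells. The part of QKI in the difference between the lines was not tested and cannot be told apart from the line itself. DUSP5 fell to 46.2 ± 2.61 rescaled counts in siQKI PANC-1 cells and stood at 138 ± 15.3 in HPAF-II cells (SD, n = 3). SPRY4 stood at 66.6 ± 2.01 and 75.2 ± 4.82 rescaled counts in the same groups (SD, n = 3).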

How the data were processed

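PolyA libraries were sequenced by the authors (paired-end, Illumina NovaSeq). The submitters' processing notes name hg38, STAR 2.7.5a, SAMtools, Picard and FastQC. The deposited signal values are FAST DB gene counts that the authors divided by DESeq2 size factors, estimated apart for PANC-1 (9 libraries) and HPAF-II. Values were whole multiples of a step per library (within 0.01), with totals of 292248837 to 376192091 steps per PANC-1 library and 226697015 to 309720537 per HPAF-II library. Among values of 1 to 30 steps, 82.1% to 84.8% were multiples of 3, so fragments, and counting error, are unknown and precision comes from replicates. Strand is not stated.

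Genes whose mean was 10 or more (22544) entered limma 3.58.1 (R 4.3.3) on log2(normalized count + 1), in 1 fit of the 9 PANC-1 libraries with a mean-variance trend, with Benjamini-Hochberg adjustment over all genes at 0.05. This scale understates changes of low genes. The fit was also run on simulated data with known changes and independent noise. That run checks the code and does not show how the fit behaves on these libraries. HPAF-II and PANC-1 were compared without a test, with a pseudocount of 0.01. Exon lengths came from GENCODE v29. Python 3.11.15, numpy 2.4.6, pandas 2.3.3 and matplotlib 3.10.9 were used. Alternatives were other pseudocounts, filters and scalings, pairwise fits, a replicate block, no trend and leaving out each library.

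The members and gene lists were chosen with earlier results of these data known. Named genes are the members, QKI and RBFOX2, the list genes that passed with a fold of at least 1.5 plus the next 2 per list and knockdown, and the 5 genes most like DUSP6. Genes that overlap a member, the epithelial gene CDH1 and DUSP2 in siQKI cells were named outside that rule, after their values were seen. Of the cascade list, 2 genes count in its totals and are not reported here by name or in the plot.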

Additional observations from a re-analysis of the deposited data

Results flagged for a closer look

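The effects of the 2 knockdowns on the same gene, in the same cell line and against the same controls, differed for 5 members in the direct limma contrast of siQKI with siRBFOX2. The log2 difference was 1.22 for DUSP6, 0.30 for SPRY1 and 0.23 for SPRY2, which were higher in siQKI cells. It was -0.39 for DUSP5 and -0.34 for ETV5, which were lower in siQKI cells. Of all genes tested, 21.5% passed in this contrast. For each of these 5 genes, all siQKI libraries lay on the same side of all siRBFOX2 libraries. The same libraries gave the calls, so this adds no support. The libraries were also apart for SPRY4 and SPRED2, which were not called. The share of all genes whose libraries lay apart in this contrast is not given here, so this is not read as a result about the members. Of the 5 genes called, SPRY1 missed the threshold in 2 of 17 alternatives, and the other 4 passed in all 17.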

How the results depend on the processing

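Each PANC-1 comparison was recomputed under 17 alternatives. The number of members called was 7 to 9 for siQKI against siCtrl, 9 in every alternative for siRBFOX2 against siCtrl and 4 to 5 for siQKI against siRBFOX2, and the numbers over all genes were 5948 to 7674, 4259 to 6180 and 3374 to 5076. Leaving out 1 library gave 7 to 9, 9 to 9 and 4 to 5 members. In siRBFOX2 cells all 169 recomputed member values kept their direction and their side of the threshold. In siQKI cells 159 of 169 did, and 9 calls were lost, 3 of DUSP6 and 6 of SPRY1, including SPRY1 under upper-quartile rescaling (adjusted p = 0.0512) and without a mean-variance trend (adjusted p = 0.122). Between the knockdowns 164 of 169 did, and SPRY1 was lost without a trend (adjusted p = 0.0732) and without siQKI replicate 1. Changes of sign were seen only in values that were not called. DUSP4 in siQKI cells was at -0.40 without siCtrl replicate 1 (up to 1.54 without siCtrl replicate 2), and SPRED1 between the knockdowns was at 0.0059 under upper-quartile rescaling, at 0.051 without siQKI replicate 1 and at 0.03 without siRBFOX2 replicate 2, with -0.041 as its lowest without a library. The cause was not tested. DUSP4 fell below a minimum mean of 50 and has no value there. In HPAF-II against PANC-1, 5 to 7 members were at least 2-fold apart, with 5 for the deposited values without rescaling.

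Replicate numbers are shared between groups. Over all genes tested, same-numbered libraries did not deviate together (r from -0.03 to 0.02 for 9 pairs, against -0.03 to 0.04 for 18 pairs with different numbers). This does not cover single genes. DUSP6 fell in the order of the replicate numbers in each PANC-1 group. Its adjusted p in siQKI cells was 0.0151 in the main fit and 8.43e-04 with a replicate block (limma). With the block it was also lower for SPRY1 and SPRED1, and higher for the other members called. A fit with a replicate block called 9, 9 and 5 members and 7336, 5891 and 4758 over all genes. The planned edgeR fit was not run, because fragment counts could not be recovered. Genes at a few steps, such as DUSP4 in PANC-1, are beyond the precision of these libraries.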
